A study of Mus musculus with 12 samples.

Results

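The mitochondrial ribosomal proteins are the nuclear-encoded proteins of the ribosome that works inside mitochondria. The genes were taken by symbol and gene type, as every protein-coding gene of the deposited table whose symbol begins with *Mrpl* or *Mrps* followed by a number, and 77 of the 35275 genes in the table met this rule. The rule itself uses no measured value. Of the 77 genes, 50 encode proteins of the large subunit and 26 proteins of the small subunit, and 48 of these have a counterpart in the bacterial ribosome while 28 are found only in mitochondria. The remaining gene, *Mrps36*, carries a ribosomal name but encodes a component of the 2-oxoglutarate dehydrogenase complex.

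The mitochondrial ribosome makes the respiratory chain subunits encoded by the mitochondrial genome. Its ribosomal RNAs are transcribed from that genome, whereas all of its proteins are made in the cytosol and imported, so that assembly of the particle depends on both genomes. In the kidney, mitochondria are especially dense in the proximal tubule and the thick ascending limb, where they supply the ATP for solute transport.

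Kidney RNA was sequenced after poly-T selection from 12 C57BL/6J mice aged 6 months, 4 in each of 3 groups. WT mice were the controls. RC/RC mice were homozygous for the RC allele of *Pkd1* and model polycystic kidney disease (PKD). RC/RC:*Casp1*KO mice carried the same *Pkd1* alleles and, in every cell, a homozygous 28-bp deletion in *Casp1*, bred as a single line, that removes the active-site coding sequence of Caspase-1. The deletion also takes out the splice donor of exon 6. No group carried the *Casp1* deletion with wild-type *Pkd1*, so the comparison of RC/RC:*Casp1*KO with WT joins both alleles. Each group had 2 females and 2 males, but the columns of the count table name the group and not the sex, and the sexes were therefore not separated. Mice are called 1 to 4 within each group in the order of the table, as names only. Over all genes, the chi-square per degree of freedom between the counts of WT mice 1 and 2 was 17.7 and of WT mice 3 and 4 was 16.4, against 89.8 to 127.3 for the other WT pairs. For RC/RC:*Casp1*KO it was 15.8 for mice 1 and 2 and 31.8 for mice 3 and 4, against 67.1 to 93.4 for the other pairs, and among RC/RC mice it ranged from 37.2 to 127.7, lowest for mice 3 and 4. What sets these mice apart was not tested, and they enter each fit as 4 replicates of their group.

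Reads counted to genes ranged from 18019819 to 24869454 per mouse. Levels are given as CPM, the counts of a gene relative to the reads counted in a mouse, scaled with TMM factors, a scaling between libraries, and fold changes, their standard errors (SE) and p-values come from the quasi-likelihood test of edgeR, adjusted over all genes tested in a comparison by the Benjamini-Hochberg method. A gene is called a differentially expressed gene (DEG) at an adjusted p under 0.05. *Casp1* itself was at 2.05, 1.29, 1.31 and 1.41 CPM in the WT mice, 3.33, 3.86, 4.24 and 2.62 CPM in the RC/RC mice and 0.382, 0.667, 0.665 and 1.06 CPM in the RC/RC:*Casp1*KO mice. Every mouse with the deletion was lower than every mouse of both other groups, and the log2 fold change was -2.35 against RC/RC (edgeR adjusted p = 0.00514) and -1.12 against WT (edgeR adjusted p = 0.128, not called). Most of the gene lies outside the deletion, and the source of the remaining counts was not tested. *Pkd1*, whose RC allele is a base change, was not called in any comparison (log2 fold changes of 0.06 in RC/RC against WT, 0.37 in RC/RC:*Casp1*KO relative to RC/RC and 0.44 in RC/RC:*Casp1*KO against WT).

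The members of the set were expressed in every mouse with 1 exception. Their reads made up 0.268% to 0.386% of the reads of a mouse, and 76 of the 77 passed the filter on low counts in all 3 comparisons, with at least 150 reads in every mouse. *Mrpl53*, a mitochondria-specific protein of the large subunit, had 0 counts in all 12 mice. In the deposited annotation it lies at chr6:83109095-83109939 on the plus strand, wholly inside *Ccdc142* at chr6:83101617-83109939 on the same strand, which had 41 to 150 reads. The counting rule for reads in both genes is not given in the sources used here, and a count of 0 is therefore not a measurement of *Mrpl53*.

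The promoters of the set were searched for 5 short letter strings, which the choice by name did not use, and none occurred in most of them. A promoter of RefSeq (build GRCm38.p6, 250 bases before to 50 after the annotated start) was available for 68 of the 77 genes. The letters CCGGAAG, a core read by ETS factors such as GABPA (NRF-2), an activator of nuclear genes for mitochondrial proteins, occurred on either strand in 24 of the 68 promoters, or 35.3%, against 16.4% of the promoters of all protein-coding genes tested and 9.12% of all promoters in the table. The promoters of the cytosolic ribosomal proteins had them in 37.9% and those of the nuclear respiratory chain genes in 22.7%. AAGATGGCG, a core of the YY1 site, occurred in 8 promoters of the set (11.8%, against 2.90% of those of tested protein-coding genes and 1.49% of all). GCGCATG, part of the palindrome bound by NRF1, a factor for nuclear genes of mitochondria, occurred in 8 (11.8%, against 6.53% and 4.04%), and the full palindrome in 3 (4.41%, against 1.90% and 0.977%). The E-box CACGTG, which MYC can bind, occurred in 5 (7.35%, against 9.71% and 7.24%). Both strands were searched, the ETS and YY1 letters can share AAG where they adjoin, and a match is a description of the sequence and not a binding site. The ETS letters lay wholly within the 100 bases before the RefSeq start in 13 genes, and in 5 of these that stretch lies outside the gene as the deposited table places it. Of the 5, the 4 with the lowest p in RC/RC:*Casp1*KO against RC/RC are printed, each on the strand of its gene and with CCGGAAG or its reverse complement in capitals, to show where the letters sit. Each stretch ends at the base before the start of the gene in both sources. They are *Mrpl52* (chr14:54426809-54426908, plus strand), *Mrpl34* (chr8:71464826-71464925, plus strand), *Mrpl43* (chr19:45006443-45006542, minus strand) and *Mrps27* (chr13:99344686-99344785, plus strand).
Mrpl52: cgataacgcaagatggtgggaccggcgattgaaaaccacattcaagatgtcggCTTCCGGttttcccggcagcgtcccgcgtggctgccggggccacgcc
Mrpl34: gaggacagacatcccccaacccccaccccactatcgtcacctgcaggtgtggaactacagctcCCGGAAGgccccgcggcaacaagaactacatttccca
Mrpl43: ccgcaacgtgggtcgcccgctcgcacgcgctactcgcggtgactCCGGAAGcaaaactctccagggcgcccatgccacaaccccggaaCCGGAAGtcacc
Mrps27: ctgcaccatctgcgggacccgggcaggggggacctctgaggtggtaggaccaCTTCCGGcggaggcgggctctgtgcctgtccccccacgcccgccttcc
In *Mrpl34* and *Mrpl43* the letters read in the direction of the gene, with 2 copies in *Mrpl43*, and in *Mrpl52* and *Mrps27* they read against it.

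Levels per length (FPKM, from the counts and the gene lengths in the table, mean ± SD over 12 mice) spanned a wide range although the proteins enter the particle together. In the large subunit *Mrpl42*, a mitochondria-specific protein, was highest at 119.8 ± 20.5 FPKM, and in the small subunit *Mrps21*, which has a bacterial counterpart, was highest at 120.3 ± 26.3 FPKM. The lowest levels above 0 were 3.72 ± 0.446 FPKM for *Mrpl19* of the large subunit and 5.39 ± 1.16 FPKM for *Mrps25* of the small subunit. The lengths in the table are 5000 bases for *Mrpl19* and 6073 bases for *Mrps25*, and 38.95% and 52.0% of the exon bases of these genes in GENCODE vM39 also lie in a neighbouring gene.

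The levels of these 4 genes in each mouse were as follows. *Mrpl42* was at 103, 96.8, 71.4 and 75.5 CPM in WT mice, 68.4, 96.7, 103 and 76.6 CPM in RC/RC mice and 69.1, 64.3, 77.7 and 58.9 CPM in RC/RC:*Casp1*KO. *Mrps21* was at 94.4, 88.9, 76.2 and 80.8 CPM in WT mice, 70.8, 116, 127 and 93.9 CPM in RC/RC mice and 78.5, 63.3, 84.7 and 59.5 CPM in RC/RC:*Casp1*KO. Mice 2 and 3 were the highest of the RC/RC mice for both genes, mouse 1 was the lowest, and the groups overlapped. *Mrpl19* was at 20.02, 22.3, 16.7 and 16.2 CPM in WT mice, 16.9, 20.8, 22.1 and 17.6 CPM in RC/RC mice and 19.7, 14.96, 18.3 and 17.6 CPM in RC/RC:*Casp1*KO. *Mrps25* was at 44.5, 41.8, 24.5 and 30.7 CPM in WT mice, 31.4, 42.3, 40.5 and 31.9 CPM in RC/RC mice and 29.7, 24.7, 29.3 and 23.1 CPM in RC/RC:*Casp1*KO. The groups overlapped for *Mrpl19*. For *Mrps25* each mouse with the *Casp1* deletion was lower than each RC/RC mouse, by a log2 fold change of -0.46 (edgeR adjusted p = 0.0601).

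The transcripts varied together from mouse to mouse. Over the deviations of the 12 mice from their group means, the median pairwise Pearson correlation among the 76 genes was 0.74, compared with 0.94 among cytosolic ribosomal protein genes and 0.78 among nuclear respiratory chain genes. Of the 76, 72 had a correlation above 0.5 with the mean of the others, and the lowest were *Mrps9* (0.34), *Mrps18b* (0.35), *Mrps6* (0.40) and *Mrpl3* (0.49). The mean of the set moved with the means of the cytosolic ribosomal proteins (0.81) and of the respiratory chain (0.89). These values share the libraries, their depth and their scaling, and are descriptive.

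The mean log2(CPM + 0.5) over the 77 genes was 5.34, 5.30, 5.09 and 5.12 in the WT mice, 4.97, 5.31, 5.50 and 5.25 in the RC/RC mice and 5.02, 4.88, 5.17 and 4.85 in the RC/RC:*Casp1*KO mice. The group means ± SD (n = 4) were 5.21 ± 0.128 for WT, 5.26 ± 0.221 for RC/RC and 4.98 ± 0.149 for RC/RC:*Casp1*KO. WT and RC/RC overlapped widely, RC/RC mouse 1 was the lowest of its group and within the RC/RC:*Casp1*KO range, and only RC/RC:*Casp1*KO mouse 3 reached the WT range. The mean of the large subunit genes exceeded that of the small subunit genes by 0.0832 to 0.155 on this scale in all 12 mice.

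**Figure D1:**
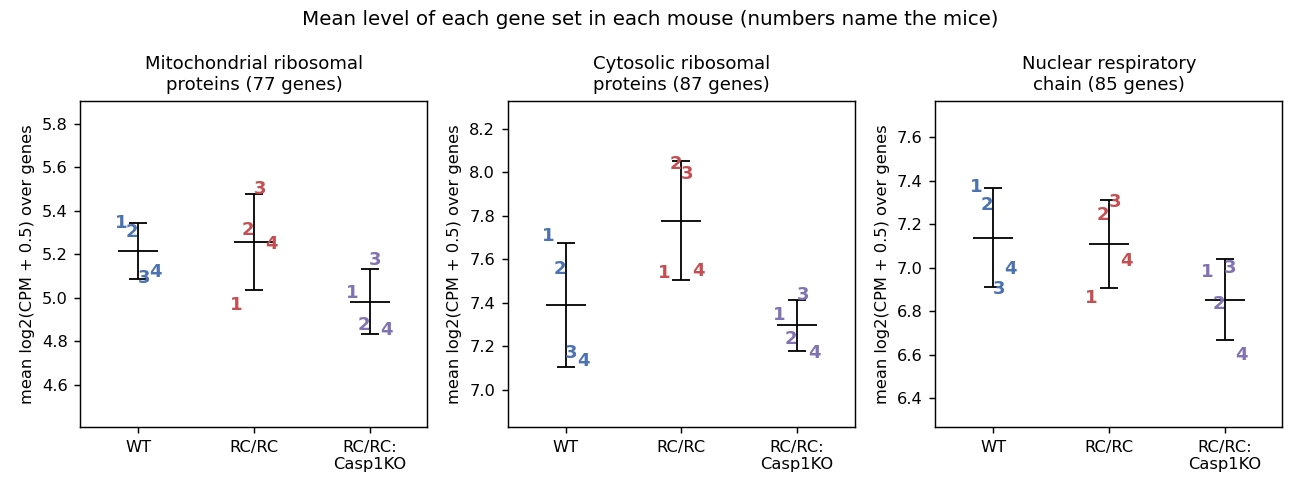
Mean log2(CPM + 0.5) over the genes of each set (vertical axis, the same span in each panel) for each mouse, shown by its number, with the group mean and SD as bars (n = 4 per group). The mitochondrial ribosomal proteins had group means of 5.21, 5.26 and 4.98, and RC/RC mouse 1, at 4.97, was the lowest of the RC/RC mice.

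To ask whether cystic disease was accompanied by a change in these transcripts, RC/RC was compared with WT. Of the 76 genes, 0 were higher and 0 were lower at an adjusted p under 0.05 in edgeR, while 9.76% of all 15243 genes tested were called higher and 3.18% lower. DESeq2 also called 0, where it called 10.6% of all genes higher and 5.39% lower. At an unadjusted p under 0.05 edgeR had 1 gene higher, *Mrpl33*, and 0 lower, where 17.3% of all genes tested were higher and 1825 of the 15243 lower. With the length trend removed 9 were lower at this p, and without RC/RC mouse 3, 3 were lower. Over all genes, calls at an adjusted p under 0.05 numbered 1971, with 2083 after length correction and 1346 without RC/RC mouse 3. The median log2 fold change of the set was 0.06, against -0.02 for all genes tested, and 48 genes lay above 0 and 28 below, where 52.2% of all genes tested were below 0. This direction turned with the processing: the median was -0.07 with 47 of 76 genes below 0 after the correction for gene length described below, -0.03 with 41 below 0 without WT mouse 3, and -0.03 with 44 below 0 without RC/RC mouse 3.

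*Mrpl33*, a large subunit protein with a bacterial counterpart, was the only member with all RC/RC mice above all WT mice, a pattern shown by 12.6% of all genes tested. It was at 35.8, 33.2, 35.5 and 36.5 CPM in the WT mice and at 39.5, 46.3, 54.9 and 37.7 CPM in the RC/RC mice (log2 fold change 0.34, SE 0.13, edgeR adjusted p = 0.115). In the opposite direction *Mrpl37*, which is specific to mitochondria, was the only one with all RC/RC mice below all WT mice (7.06% of all genes tested), at 72.1, 70.2, 71.3 and 74.1 CPM in the WT mice and at 55.2, 64.9, 69.7 and 65.5 CPM in the RC/RC mice. Its log2 fold change was -0.17 (edgeR adjusted p = 0.266), and 45.8% of its exon bases in GENCODE vM39 also lie in *Cyb5rl* on the opposite strand. Both genes were singled out after their values were seen.

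The members with the largest positive differences were *Mrps11*, *Mrpl23* and *Mrpl52*, and none of these differences passed the test. *Mrps11* was at 20.8, 18.8, 15.4 and 18.4 CPM in the WT mice and at 16.5, 31.5, 32.4 and 19.3 CPM in the RC/RC mice (log2 fold change 0.44, SE 0.22, edgeR adjusted p = 0.226). Only RC/RC mice 2 and 3 exceeded the WT range. *Mrpl23*, which lies near the exit of the peptide tunnel, was at 36.4, 35.2, 21.4 and 19.2 CPM in the WT mice and at 30.8, 45.4, 40.1 and 27.4 CPM in the RC/RC mice (log2 fold change 0.36, SE 0.24, edgeR adjusted p = 0.353). WT mice 1 and 2 were above WT mice 3 and 4, and the groups overlapped, as they did for *Mrpl52*, given below in each mouse (log2 fold change 0.35, SE 0.18, edgeR adjusted p = 0.240).

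The largest negative differences were those of *Mrps12*, *Mrpl50* and *Mrps31*. *Mrps12*, the counterpart of the bacterial protein at the decoding centre, was at 45.5, 44.2, 33.6 and 34.3 CPM in the WT mice and at 19.1, 31.8, 39.7 and 33.2 CPM in the RC/RC mice (log2 fold change -0.35, SE 0.21, edgeR adjusted p = 0.294). *Mrpl50* was at 109, 111, 80.1 and 90.3 CPM in the WT mice and at 68.2, 75.3, 92.3 and 97.1 CPM in the RC/RC mice (log2 fold change -0.23, edgeR adjusted p = 0.345). *Mrps31* was at 31.2, 34.4, 28.3 and 28.6 CPM in the WT mice and at 23.8, 23.1, 30.4 and 27.96 CPM in the RC/RC mice (log2 fold change -0.22, edgeR adjusted p = 0.264). The groups overlapped for each of the 3 genes, and for *Mrps12* RC/RC mouse 1 was far below the other RC/RC mice.

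**Figure D2:**
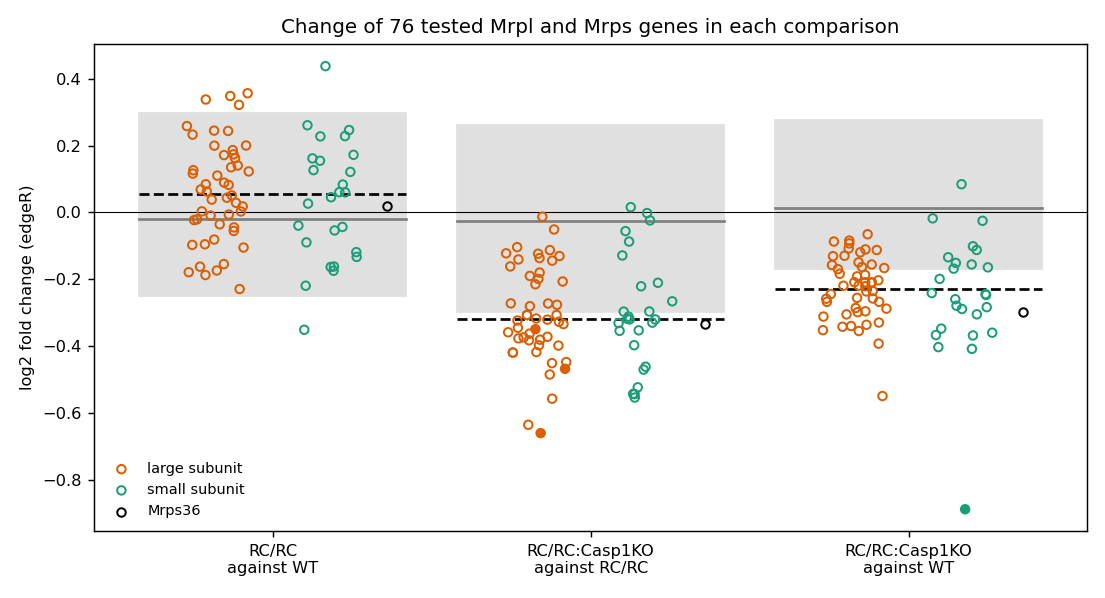
Log2 fold change (vertical axis) of the 76 tested genes in each comparison, with filled points for genes called at an adjusted p under 0.05, a dashed line at the median of the set, and a grey band and line for the quartiles and median of all genes tested. The median of the set was 0.06 in RC/RC against WT, -0.32 for RC/RC:*Casp1*KO relative to RC/RC and -0.23 for RC/RC:*Casp1*KO relative to WT.

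To examine the effect of *Casp1* KO in the cystic kidney, RC/RC:*Casp1*KO was compared with RC/RC. Nearly all members had lower levels in RC/RC:*Casp1*KO, by small amounts. Of the 76 genes, 3 large subunit genes were called lower, *Mrpl52*, *Mrpl55* and *Mrpl48*, which is 3 of 76 against 4.41% of all 15428 genes tested, so the share of calls was close to the background. DESeq2 called 7 lower, against 7.87% of all genes. None was called higher by edgeR or DESeq2 (7.23% and 9.76% of all genes tested), and 0 were higher at an unadjusted p under 0.05, against 15.3%. The log2 fold change was below 0 for 75 of the 76 genes, against 52.5% of all genes tested, and its median was -0.32, against -0.03. With the length trend of each library removed, as described below, the median was -0.13 and 65 of 76 genes were below 0. For 10 of the 76 genes there was no overlap, with the 4 RC/RC:*Casp1*KO mice at the bottom, against 8.67% of all genes tested.

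*Mrpl52*, a mitochondria-specific protein of the large subunit whose promoter is printed above, had the largest difference. It was at 40.6, 63.4, 60.2 and 40.4 CPM in RC/RC mice and 32.9, 31.9, 35.9 and 29.6 CPM in RC/RC:*Casp1*KO, beside 46.6, 44.9, 34.9 and 34.2 CPM in WT. It fell by 0.66 on the log2 scale (SE 0.17, edgeR adjusted p = 0.0374), and with the length trend removed the log2 fold change was -0.28 (edgeR adjusted p = 0.0671, not called). With library size alone the call was also lost (edgeR adjusted p = 0.056). RC/RC mice 2 and 3 were the highest of all 12 mice, no RC/RC:*Casp1*KO mouse reached the RC/RC range, and RC/RC:*Casp1*KO overlapped with WT. At 412 bases it is the shortest member in the table (chr14:54426909-54429750, plus strand, mm10).

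*Mrpl55*, a large subunit protein with a bacterial counterpart (chr11:59202486-59206134, plus strand), was at 21.7, 26.6, 28.6 and 24.4 CPM in RC/RC mice and 19.5, 19.3, 19.5 and 15.5 CPM in RC/RC:*Casp1*KO, beside 24.9, 23.2, 18.2 and 19.1 CPM in WT. It fell by 0.47 on the log2 scale (SE 0.13, edgeR adjusted p = 0.0454), and with the length trend removed the log2 fold change was -0.21 (edgeR adjusted p = 0.201, not called). The call was also lost with library size alone, without mitochondrial genes in the scaling and without a filter (edgeR adjusted p = 0.0643, 0.0517 and 0.0627). The log2 fold changes there were -0.42, -0.44 and -0.45, and the call held in 3 of the 7 alternatives. *Mrpl48*, specific to mitochondria (chr7:100545751-100608297, minus strand), which has a near-identical pseudogene with 0.15% of its mean count in the table, was at 46.0, 45.6, 52.5 and 42.8 CPM in RC/RC mice and 38.8, 36.2, 39.0 and 33.7 CPM in RC/RC:*Casp1*KO, beside 46.5, 47.5, 36.5 and 33.8 CPM in WT. Its log2 fold change was -0.35 (SE 0.10, edgeR adjusted p = 0.0499). The call was lost in 5 of the 7 alternatives, with adjusted p of 0.0522 to 0.0872 in edgeR, and kept in DESeq2 and with the length trend removed. For both genes no RC/RC:*Casp1*KO mouse reached the RC/RC range, and RC/RC:*Casp1*KO mouse 4 was the lowest.

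These calls depended on single mice. Without RC/RC mouse 1, 29 of the 76 genes were called lower, the 3 above among them. Over all genes, calls in either direction then numbered 2789, against 1797 with every mouse. Without RC/RC mouse 4, 3 members were called, of which *Mrpl52* alone was among the first 3. Without RC/RC mouse 2 or 3 or any 1 of the RC/RC:*Casp1*KO mice 0 members were called. The median log2 fold change of the set ranged from -0.43 to -0.24 in the 8 fits that each omitted 1 mouse.

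Only *Mrps5* lay above 0 in this comparison, with *Mrps9* and *Mrpl24* next to it. *Mrps5*, a small subunit protein with a bacterial counterpart, was at 47.2, 50.5, 56.6 and 53.6 CPM in RC/RC mice and 51.2, 48.8, 60.6 and 51.2 CPM in RC/RC:*Casp1*KO, beside 54.6, 57.2, 55.5 and 60.5 CPM in WT (log2 fold change 0.02, SE 0.11, edgeR adjusted p = 0.935). *Mrps9* was at 34.6, 30.8, 38.4 and 40.4 CPM in RC/RC mice and 35.6, 34.3, 40.3 and 35.1 CPM in RC/RC:*Casp1*KO, beside 35.8, 38.1, 37.8 and 36.5 CPM in WT. *Mrpl24* was at 39.8, 44.8, 45.3 and 44.2 CPM in RC/RC mice and 42.2, 44.4, 45.8 and 41.6 CPM in RC/RC:*Casp1*KO, beside 46.3, 46.2, 45.1 and 48.3 CPM in WT. *Mrps9* and *Mrpl24* had log2 fold changes of -0.0020 and -0.013 (edgeR adjusted p = 0.992 and 0.938). The sign of each of these 3 differences turned under at least 1 alternative processing, and the groups overlapped.

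The differences were spread over both subunits. In RC/RC:*Casp1*KO against RC/RC the median log2 fold change was -0.32 for the 49 large subunit genes and -0.32 for the 26 small subunit genes, and it was -0.32 for genes with a bacterial counterpart and -0.31 for mitochondria-specific genes. With the length trend removed these medians were -0.12, -0.18, -0.13 and -0.13. At an unadjusted p under 0.05, 22 of the 49 large subunit genes and 8 of the 26 small subunit genes were lower, against 16.4% of all genes tested. This count, 30 of 76, was 11 of 76 with the length trend removed and 56 of 76 without RC/RC mouse 1. The 16.4% belongs to the fit with all mice and no length correction. Over all genes, calls at an adjusted p under 0.05 numbered 1797 there, 1446 with the length trend removed and 2789 without RC/RC mouse 1.

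The S18 family has 3 mitochondrial genes related to a single bacterial protein, of which *Mrps18a* belongs to the large subunit and *Mrps18b* and *Mrps18c* to the small subunit. Per length, *Mrps18c* was highest at 29.5 ± 4.09 FPKM, *Mrps18a* was at 21.2 ± 2.36 FPKM and *Mrps18b* was lowest at 9.11 ± 1.20 FPKM (mean ± SD over 12 mice). *Mrps18c* was at 27.0, 24.8, 20.7 and 21.4 CPM in WT mice, 24.4, 27.8, 31.5 and 26.2 CPM in RC/RC mice and 22.3, 21.3, 23.4 and 19.6 CPM in RC/RC:*Casp1*KO. No mouse with the *Casp1* deletion reached the RC/RC range, with a log2 fold change of -0.35 (SE 0.11, edgeR adjusted p = 0.0694), which was -0.075 with the length trend removed (edgeR adjusted p = 0.593). *Mrps18a* was at 47.6, 50.04, 44.5 and 47.6 CPM in WT mice, 40.1, 50.6, 61.2 and 55.4 CPM in RC/RC mice and 43.2, 39.7, 46.7 and 39.3 CPM in RC/RC:*Casp1*KO, with a log2 fold change against RC/RC of -0.31 (edgeR adjusted p = 0.171). *Mrps18b* was at 9.86, 9.81, 12.02 and 10.9 CPM in WT mice, 7.88, 7.99, 10.04 and 12.2 CPM in RC/RC mice and 9.58, 7.15, 11.9 and 9.20 CPM in RC/RC:*Casp1*KO, with a log2 fold change against RC/RC of -0.02 (SE 0.21, edgeR adjusted p = 0.949). The groups overlapped for *Mrps18a* and *Mrps18b*. Between 21.1% (*Mrps18a*) and 68.6% (*Mrps18c*) of the exon bases of the 3 genes also lie in a gene on the opposite strand, and the strand setting of the counting is not given in the sources used here.

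*Mrps36*, the member that is not part of the ribosome, behaved within the range of the others. It was at 44.9, 41.9, 35.1 and 38.3 CPM in WT mice, 29.7, 41.9, 48.5 and 42.2 CPM in RC/RC mice and 29.9, 27.1, 43.0 and 29.9 CPM in RC/RC:*Casp1*KO. RC/RC mouse 1 and RC/RC:*Casp1*KO mouse 3 each lay with the other group, and the log2 fold change was -0.33 (SE 0.19, edgeR adjusted p = 0.255), or -0.035 with the length trend removed.

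**Figure D3:**
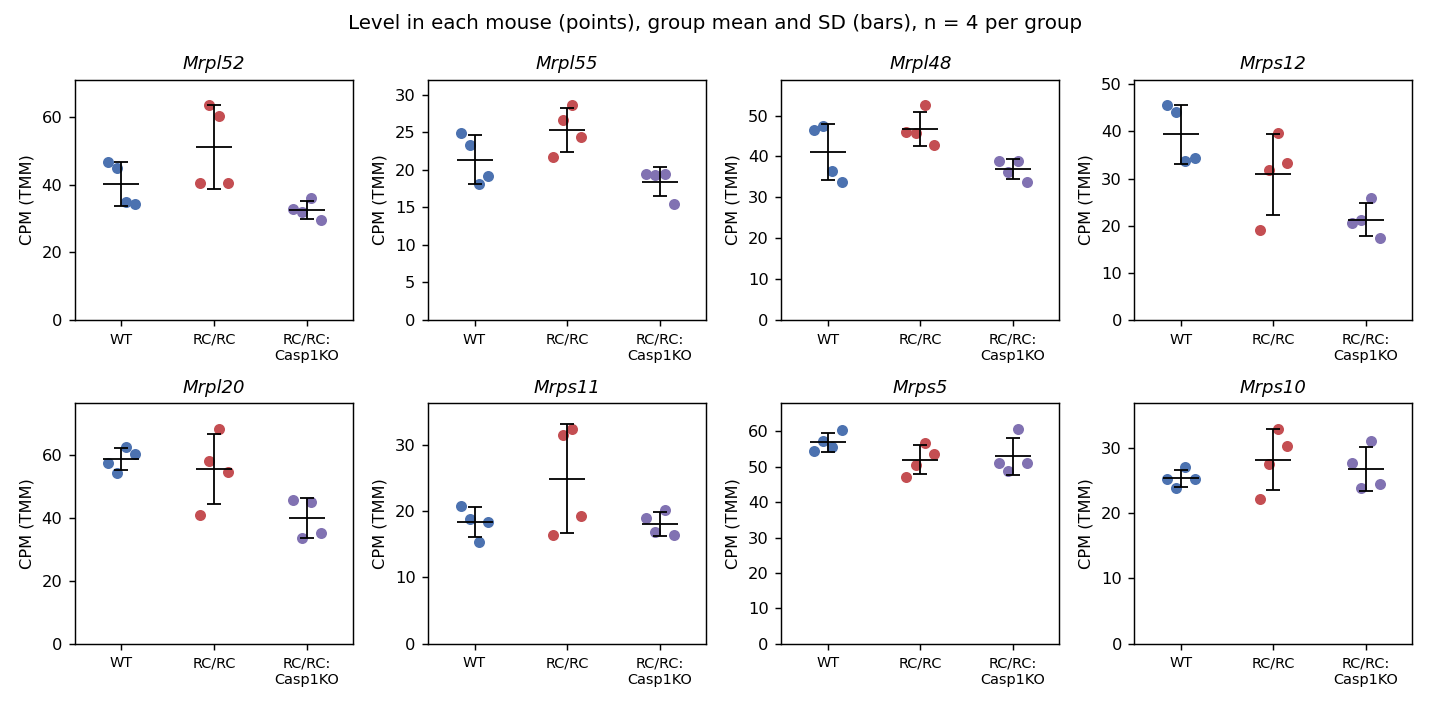
CPM (vertical axes, from 0) of 8 members in each mouse as points, with the group mean and SD as bars (n = 4 per group). For *Mrpl52*, *Mrpl55* and *Mrpl48* every RC/RC:*Casp1*KO mouse was lower than every RC/RC mouse, for *Mrps12* and *Mrpl20* every one was lower than every WT mouse, and for *Mrps11*, *Mrps5* and *Mrps10* the groups overlapped.

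Set beside RC/RC:*Casp1*KO against WT, a comparison that shares its RC/RC:*Casp1*KO mice with the preceding one, 1 of the 76 genes was called lower, *Mrps12*, and 0 higher, against 0.893% and 1.13% (2.03% in either direction) of all 15346 genes tested. DESeq2 called 4 lower and 0 higher, against 3.44% and 4.58% of all genes. At an unadjusted p under 0.05 edgeR had 22 lower and 0 higher, against 9.99% and 11.8% of all genes tested. The log2 fold change was below 0 for 75 of the 76, against 48.5% of all genes tested, with a median of -0.23 against 0.01. With library size alone as the scaling the median was -0.10 and 63 of 76 were below 0, and without 1 mouse it ranged from -0.31 to -0.18. For 10 of the 76 genes the 4 RC/RC:*Casp1*KO mice were lower than the 4 WT mice without overlap, against 6.54% of all genes tested, and for 0 they were higher, against 7.4%.

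*Mrps12* (chr7:28739641-28741820, minus strand) was at 20.6, 21.2, 25.8 and 17.4 CPM in RC/RC:*Casp1*KO, against the 33.6 to 45.5 CPM in WT given above. It fell by 0.89 on the log2 scale (SE 0.15, edgeR adjusted p = 0.0242), every RC/RC:*Casp1*KO mouse was below every WT mouse, and RC/RC mouse 1, at 19.1 CPM, was as low. The call held in all 7 alternatives of test, scaling, filter, fit and length correction, but was lost without WT mouse 1 or 2 or RC/RC:*Casp1*KO mouse 1, 2 or 4 (adjusted p up to 0.0774 in edgeR), while the log2 fold change stayed between -0.99 and -0.80. Of the *Mrps12* exon bases in GENCODE vM39, 19.6% also lie in *Sars2* on the opposite strand. The strand setting of the counting is not given, and no alternative addressed this overlap. *Mrpl20*, a large subunit protein with a bacterial counterpart, was at 57.5, 54.5, 62.6 and 60.4 CPM in WT mice, 41.1, 58.2, 68.3 and 54.8 CPM in RC/RC mice and 45.8, 33.8, 45.2 and 35.3 CPM in RC/RC:*Casp1*KO. It lay just outside the threshold in edgeR, with a log2 fold change of -0.55 against WT (SE 0.12, edgeR adjusted p = 0.0504) and no overlap between these groups. Of the 7 alternatives DESeq2 alone called *Mrpl20* lower (DESeq2 adjusted p = 0.0021). Of the fits without 1 mouse, only that without RC/RC:*Casp1*KO mouse 3 called it (edgeR adjusted p = 0.0429). *Mrps16* was at 42.8, 37.1, 31.4 and 30.3 CPM in WT mice, 31.1, 44.1, 44.8 and 34.1 CPM in RC/RC mice and 27.0, 25.8, 32.1 and 21.6 CPM in RC/RC:*Casp1*KO, with a log2 fold change against WT of -0.41 (SE 0.15, edgeR adjusted p = 0.168) and overlap at RC/RC:*Casp1*KO mouse 3.

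At the other end, *Mrps10* of the small subunit was the only member above 0 against WT. It was at 25.2, 23.9, 27.0 and 25.2 CPM in WT mice, 22.1, 27.6, 32.9 and 30.3 CPM in RC/RC mice and 27.6, 23.9, 31.1 and 24.4 CPM in RC/RC:*Casp1*KO (log2 fold change against WT 0.08, SE 0.10, edgeR adjusted p = 0.645). *Mrps11* was at 18.9, 16.8, 20.1 and 16.4 CPM in RC/RC:*Casp1*KO, within the WT range (log2 fold change -0.02, edgeR adjusted p = 0.945), and *Mrps9* differed from WT by a log2 fold change of -0.03 (edgeR adjusted p = 0.873). The groups overlapped for all 3.

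Cytosolic ribosomal proteins, which build the ribosome of the cytoplasm, served as a reference. Their median log2 fold change was 0.42 in RC/RC against WT, -0.55 for RC/RC:*Casp1*KO relative to RC/RC and -0.11 for RC/RC:*Casp1*KO relative to WT, where the mitochondrial set had 0.06, -0.32 and -0.23. In RC/RC:*Casp1*KO against RC/RC, 25 of 84 cytosolic genes were called lower in edgeR and 70 in DESeq2, against 4.41% and 7.87% of all genes tested. In RC/RC against WT 0 of 84 were called by edgeR and 3 were called higher by DESeq2, and 36 were higher at an unadjusted p under 0.05, against 17.3% of all genes tested. After removal of the length trend the cytosolic medians in the 3 comparisons were 0.25, -0.28 and -0.04. The mean of the mitochondrial set minus that of the cytosolic set, on the log2 scale, was -2.37 to -2.01 in WT, -2.72 to -2.30 in RC/RC and -2.36 to -2.26 in RC/RC:*Casp1*KO. RC/RC mice 1, 2 and 3 lay below every WT and RC/RC:*Casp1*KO mouse in this difference, and RC/RC mouse 4 overlapped with both groups.

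Against the nuclear-encoded respiratory chain genes the mean of the set kept a similar distance in all groups. The difference of the means was -1.92 ± 0.0997 in WT, -1.85 ± 0.0711 in RC/RC and -1.87 ± 0.106 in RC/RC:*Casp1*KO (mean ± SD, n = 4, log2 scale), and the groups overlapped. Their median log2 fold changes were 0.00, -0.32 and -0.29 in the 3 comparisons, and -0.16, -0.06 and -0.24 after removal of the length trend, where those of the set were -0.07, -0.13 and -0.20. Of 83 tested, edgeR called 1 higher and 2 lower in RC/RC against WT (9.76% and 3.18% of all genes tested). It called 1 higher and 2 lower in the second comparison (7.23% and 4.41%) and 1 lower in the third (0.893%). *Ndufs5* had log2 fold changes against WT of -3.45 in RC/RC and -3.74 in RC/RC:*Casp1*KO (edgeR adjusted p = 3.2e-05 and 2.2e-06). The mRNAs made from the mitochondrial genome, the templates of this ribosome, had 12 genes tested, of which 0 were called by edgeR in any comparison (at an unadjusted p under 0.05, 1, 0 and 4 were lower, against 9.99% of all genes tested in the last, and DESeq2 called 0, 0 and 1 lower). Their medians were -0.05, -0.28 and -0.31, and -0.27, -0.011 and -0.27 after removal of the length trend. Reads of mitochondrial genes made up 9.94% ± 0.492 of the reads in WT, 10.4% ± 1.67 in RC/RC and 9.07% ± 1.13 in RC/RC:*Casp1*KO. The mitochondrial ribosomal RNAs were not analysed here.

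Of the 6 proteins of the mitochondrial ribosome that are listed under other symbols (*Dap3*, *Ptcd3*, *Chchd1*, *Aurkaip1*, *Gadd45gip1* and *Ict1*), 0 were called by edgeR in any comparison. At an unadjusted p under 0.05, 1 of the 6 was higher and 1 lower in RC/RC against WT. Of all 15243 genes tested there, 17.3% were higher and 1825 genes were lower at this p. In the second comparison 2 of the 6 were lower, against 16.4% of all genes tested. In the third 1 of the 6 was lower, against 9.99% of all genes tested. *Aurkaip1*, a small subunit protein, was at 73.2, 75.9, 62.6 and 61.4 CPM in WT mice, 68.8, 99.3, 110 and 81.7 CPM in RC/RC mice and 73.5, 68.2, 72.5 and 52.3 CPM in RC/RC:*Casp1*KO, with log2 fold changes of 0.40 in RC/RC against WT and -0.44 in RC/RC:*Casp1*KO against RC/RC (edgeR adjusted p = 0.124 and 0.116). *Ptcd3*, also of the small subunit, had the opposite signs, -0.32 and 0.20 (edgeR adjusted p = 0.138 and 0.349). The 28 assembly factors, which process the ribosomal RNAs and build the subunits, had 0 called by edgeR in any comparison, and medians of -0.10, -0.03 and -0.13. With the length trend removed these medians were -0.15, 0.05 and -0.15. At an unadjusted p under 0.05, 2 of the 28 were lower in RC/RC against WT, against 1825 of all 15243 genes tested. In the second comparison 1 was higher and 1 lower, where 15.3% of all genes tested were higher and 16.4% lower. In the third 2 were higher and 5 lower, where 11.8% of all genes tested were higher and 9.99% lower.

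The translation factors and the enzymes that charge the mitochondrial tRNAs had negative medians in RC/RC against WT, where the set had 0.06. With the length trend removed the set had -0.07, the translation factors -0.23 and these enzymes -0.18. The 15 translation factors had medians of -0.21, 0.07 and -0.06 in the 3 comparisons, with 13 of 15 below 0 in RC/RC against WT, and the 20 synthetases and related enzymes had -0.21, 0.07 and -0.12, with 19 of 20 below 0. Of 15 translation factors, *Guf1*, a GTPase of mitochondrial elongation, was at 34.6, 28.8, 33.2 and 40.6 CPM in WT mice, 24.2, 20.3, 20.2 and 26.7 CPM in RC/RC mice and 31.1, 40.1, 37.2 and 41.2 CPM in RC/RC:*Casp1*KO. It fell by 0.59 on the log2 scale in RC/RC against WT (edgeR adjusted p = 0.0246) and rose by 0.70 in RC/RC:*Casp1*KO against RC/RC (edgeR adjusted p = 0.0169), with all RC/RC mice below all mice of both other groups. Thus 1 of 15 factors was called lower and then 1 of 15 higher, against 3.18% and 7.23% of all genes tested. All RC/RC mice lay below all WT mice for 7.06% of all genes tested, and below all RC/RC:*Casp1*KO mice for 11.8%. *Tufm*, the elongation factor that brings tRNAs to the ribosome, had log2 fold changes of -0.21, -0.14 and -0.34, and *Lrpprc*, which stabilises mitochondrial mRNAs, of -0.33, 0.27 and -0.04, none of them called. Of 20 mitochondrial aminoacyl-tRNA synthetases and related enzymes, 4 were lower in RC/RC against WT (*Vars2*, *Cars2*, *Qrsl1* and *Hars2*), where 3.18% of all genes tested were lower. *Vars2*, which charges the valine tRNA, was at 29.3, 28.7, 28.4 and 32.3 CPM in WT mice, 17.9, 17.7, 19.0 and 21.0 CPM in RC/RC mice and 22.9, 21.8, 21.7 and 19.1 CPM in RC/RC:*Casp1*KO. It fell by 0.65 on the log2 scale in RC/RC (edgeR adjusted p = 0.0038) and by 0.47 in RC/RC:*Casp1*KO (edgeR adjusted p = 0.0333) against WT. *Hars2*, for the histidine tRNA, fell by 0.35 in RC/RC against WT (edgeR adjusted p = 0.0461) and rose by 0.41 in RC/RC:*Casp1*KO against RC/RC (edgeR adjusted p = 0.0239). In the latter comparison 1 of the 20 genes was called higher, against 7.23% of all genes tested. In RC/RC:*Casp1*KO against WT 1 of the 20 was called lower, against 0.893% of all genes tested.

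The 18 genes of mitochondrial DNA expression and biogenesis had medians of -0.25, 0.11 and -0.09, with 14 of 18 below 0 in RC/RC against WT. Among them, *Myc*, a transcription factor that drives ribosome production among other targets, was at 6.43, 7.24, 5.73 and 3.44 CPM in WT mice, 12.04, 19.6, 19.5 and 11.3 CPM in RC/RC mice and 7.26, 8.10, 4.49 and 6.90 CPM in RC/RC:*Casp1*KO. All RC/RC mice were above all mice of the other groups, with a log2 fold change of 1.45 against WT (edgeR adjusted p = 0.00899) and of -1.23 from RC/RC to RC/RC:*Casp1*KO (edgeR adjusted p = 0.0191). All RC/RC mice lay above all WT mice for 12.6% of all genes tested, and above all RC/RC:*Casp1*KO mice for 8.67%. *Ppargc1a*, the coactivator of mitochondrial biogenesis, fell by 0.73 on the log2 scale in RC/RC against WT (edgeR adjusted p = 0.0475) and *Polrmt*, the mitochondrial RNA polymerase, fell by 0.38 (edgeR adjusted p = 0.0315). *Ppargc1b*, a related coactivator, rose by 1.03 in RC/RC:*Casp1*KO against RC/RC (edgeR adjusted p = 0.0194). *Tfam*, which packages mitochondrial DNA, was not called in any comparison (log2 fold changes of -0.08, -0.05 and -0.11).

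Whole kidney was sequenced, so fewer cells of a type and less RNA per cell cannot be told apart, and markers of other cells moved with the groups. The 10 proximal tubule markers had median log2 fold changes of -0.73, 0.49 and -0.10 in the 3 comparisons in the order above, with 2 lower, 2 higher and 0 called in edgeR. The 10 distal nephron markers had medians of -0.55, 0.19 and -0.40, with 3 lower, 1 higher and 1 lower called. The medians of the 8 fibroblast markers were 2.27, -1.49 and 0.84, with 8 higher, 6 lower and 1 higher called. Those of the 8 macrophage markers were 1.60, -0.83 and 0.67, with 7 higher, 3 lower and 0 called. Those of the 8 tubular injury markers were 1.85, -1.25 and 0.94, with 5 higher, 1 lower and 0 called. Of all genes tested, edgeR called 9.76% higher and 3.18% lower in the first comparison. The shares were 7.23% and 4.41% in the second and 1.13% and 0.893% in the third. No marker of these lists had 0 counts in any mouse. Summed, the proximal tubule markers were at 9988, 11785, 14579 and 15736 CPM in WT mice, 7065, 4912, 8307 and 11804 CPM in RC/RC mice and 12123, 11678, 14984 and 12501 CPM in RC/RC:*Casp1*KO, with *Slc34a1*, a phosphate transporter, the most abundant. The fibroblast markers summed to 310.4, 220.0, 255.4 and 292.2 CPM in WT mice, 1176, 1917, 1077 and 828.3 CPM in RC/RC mice and 324.9, 471.0, 312.9 and 729.2 CPM in RC/RC:*Casp1*KO, with *Col3a1*, a collagen, the most abundant. The macrophage markers summed to 142.5 to 174.1 CPM in WT, 303.3 to 417.3 CPM in RC/RC and 164.2 to 353.4 CPM in RC/RC:*Casp1*KO, led by *Csf1r*, and the injury markers to 728.9 to 2495 CPM, 2607 to 6389 CPM and 781.3 to 2544 CPM, led by *Spp1*. The mean log2(CPM + 0.5) of the injury markers was 3.34 in WT, 5.74 in RC/RC and 4.32 in RC/RC:*Casp1*KO. RC/RC mouse 1 had the highest macrophage and injury sums and RC/RC mouse 4 the highest proximal tubule sum of the RC/RC mice. By the mean log2 level of the injury markers RC/RC mouse 2 (5.97) was above RC/RC mouse 1 (5.89). RC/RC:*Casp1*KO mouse 4, with the lowest mean of the set, had the highest macrophage, fibroblast and injury sums of its group, with a macrophage sum within the RC/RC range. Their part in the levels of the mitochondrial ribosomal proteins was not tested.

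Gene length also moved with the result. The members are short, with a median length of 1408 bases, and in RC/RC:*Casp1*KO against RC/RC the Spearman correlation of length with log2 fold change was 0.46 over the 76 genes and 0.30 over all 15428 genes tested, a description across genes that share the libraries. All tested genes within the lengths of the shorter members had a median log2 fold change of -0.26, and the shorter members themselves -0.36. Those within the lengths of the longer members had a median of -0.03, and the longer members themselves -0.27. By mouse, the change of log2 CPM per doubling of length, relative to the mean of the 12 mice, was -0.136 and -0.147 in RC/RC mice 2 and 3, the 2 RC/RC mice with the highest mean of the set, and lay between -0.0376 and 0.0736 in the other 10. After the length trend of each library was removed, the median of the set was -0.13 in RC/RC:*Casp1*KO against RC/RC, with 65 of 76 genes below 0 and *Mrpl48* alone called lower, -0.20 in RC/RC:*Casp1*KO against WT, with 74 of 76 below 0 and *Mrps12* called lower, and -0.07 in RC/RC against WT.

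**Figure D4:**
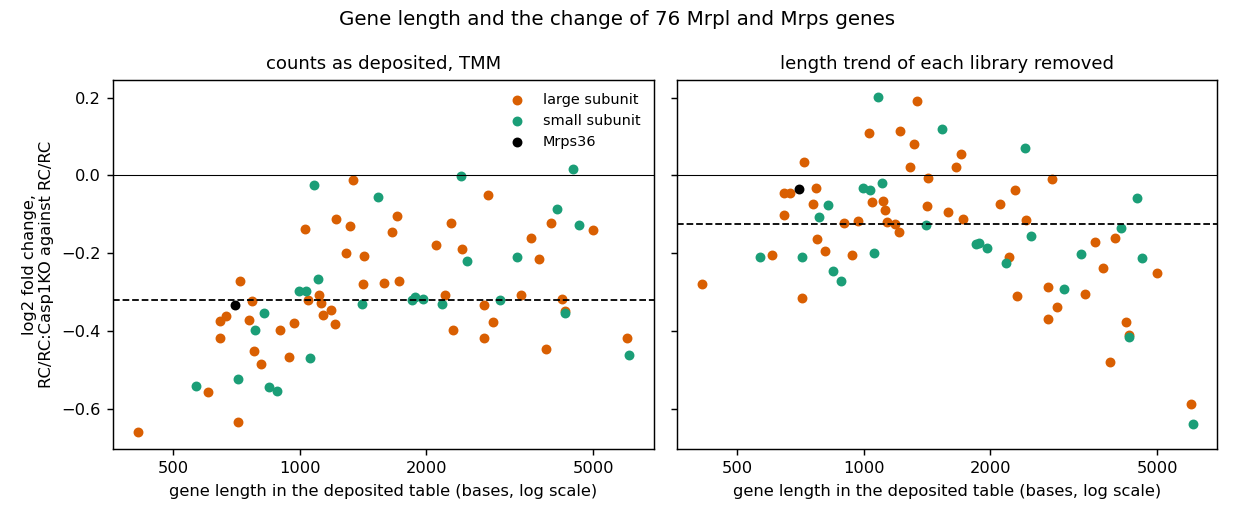
Log2 fold change (vertical axis, RC/RC:*Casp1*KO relative to RC/RC) for the 76 genes against their length in bases (horizontal log axis), before (left) and after (right) the length trend of each library was removed, with the median of the set as a dashed line. The median moved from -0.32 to -0.13, with medians after removal of -0.09 for the 38 shorter and -0.18 for the 38 longer genes, and on the right the 2 longest genes lay lowest.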

How the data were processed

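Kidney libraries of 12 mice were sequenced by the authors, whose processing notes name CASAVA 1.8, STAR and the mm10 build. The deposited table holds raw, unnormalized read counts per gene with gene lengths. Normalized values that the authors derived from them for their own figures were not used. The counting tool, the annotation release and the strand setting are not given in the sources used here. Columns were assigned to groups by their names, which carry no replicate numbers.

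From these counts, genes were filtered with filterByExpr, scaled by TMM and tested per pair of groups (8 mice) with the quasi-likelihood test of edgeR 4.0.16 in R 4.3.3, with Benjamini-Hochberg adjustment over all genes. Means used log2(CPM + 0.5). FPKM was count per length and per reads counted. Alternatives were DESeq2 1.42.0, library size alone, scaling without mitochondrial genes, no filter, at least 10 counts in every mouse, all 12 mice in one fit, a length correction by loess (span 0.5) and each mouse left out in turn. All 18 pairs of mice within groups differed beyond sampling noise. Exon overlap came from GENCODE vM39 basic transcripts and near copies (95% identity) from BLAST 2.17.0, without coordinates. The deposited gene positions are those of the table.

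The gene set and the lists were chosen with earlier results of these data known, although the rule for the set uses no value. Genes given in each mouse were, per comparison and direction, up to 5 called members, or the 3 largest differences where fewer than 3 were called, the highest and lowest FPKM in each subunit, the S18 family and *Mrps36*. *Mrpl33* and *Mrpl37* fell under none of these rules and were added after their values were seen. For the other lists the rule allowed the 3 genes with the lowest p in each comparison and a few fixed genes, and some of these are named.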

Additional observations from a re-analysis of the deposited data

Results flagged for a closer look

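Of 114 groups of 4 mice examined for a mouse that stands apart from the other 3, 2 were noted, where chance gives about 1 in 20 groups. For *Mrpl55* the lowest RC/RC:*Casp1*KO mouse was at 15.5 CPM, while the other 3 were at 19.3 to 19.5 CPM. For *Casp1* the highest WT mouse was at 2.05 CPM, while the other 3 were at 1.29 to 1.41 CPM.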

How the results depend on the processing

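No paired analysis was possible because the columns of the count table carry no replicate numbers. In all 7 alternatives 0 members were called in RC/RC against WT and 0 were called higher in the other comparisons, as in each fit without 1 mouse. Members called lower in RC/RC:*Casp1*KO against RC/RC numbered 7 in DESeq2, 0 with library size alone, 1 without mitochondrial genes in the scaling, 1 without a filter, 2 with at least 10 counts in every mouse, 5 with all 12 mice in one fit, 1 with the length trend removed, and 0 to 29 without 1 mouse, and the median of the set was -0.13 with the length trend removed. In RC/RC against WT the median of the set ranged from -0.07 to 0.14 over the 7 alternatives and from -0.03 to 0.13 without 1 mouse. Against WT, members called lower in RC/RC:*Casp1*KO numbered 4 in DESeq2 and 0 to 4 without 1 mouse. Over all genes, calls in RC/RC against WT numbered 1971, with 2988 in DESeq2 and 1162 to 2440 without 1 mouse. In RC/RC:*Casp1*KO against RC/RC they numbered 1797, with 3175 in DESeq2, 993 with library size alone and 438 to 2789 without 1 mouse. In RC/RC:*Casp1*KO against WT they numbered 311, with 1406 in DESeq2, 167 with at least 10 counts in every mouse and 108 to 547 without 1 mouse. The cause of these shifts was not tested.

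Differences near 0 changed sign. In RC/RC:*Casp1*KO against RC/RC, *Mrps9* was at 0.0041 in DESeq2, 0.051 with library size alone, 0.023 without mitochondrial genes, 0.011 without a filter, 0.0061 with at least 10 counts, 0.0095 with 12 mice, 0.071 with the length trend removed and -0.060 to 0.067 without 1 mouse. *Mrpl24* was at 0.039 with library size alone, 0.010 without mitochondrial genes, 0.00020 without a filter, 0.19 with the length trend removed and -0.068 to 0.027 without 1 mouse. *Mrps18b* was at 0.032 with library size alone, 0.0029 without mitochondrial genes, 0.20 with the length trend removed and -0.16 to 0.13 without 1 mouse, and *Mrps5* at -0.057 with the length trend removed and -0.060 to 0.057 without 1 mouse. Against WT, *Mrps11* was at 0.11 with library size alone, 0.043 with the length trend removed and -0.12 to 0.047 without 1 mouse, and *Mrps9* at 0.10 with library size alone and -0.079 to 0.00053 without 1 mouse.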
